A study of Homo sapiens with 12 samples.

Results

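The exons described here are alternative cassette exons whose mean inclusion was nearly the same in both sets of RNA-seq libraries. An exon was taken where one of its skipping events had 50 or more junction reads in each of the 6 RNA-seq libraries, a mean inclusion of 20 to 80% over the 6 libraries, and set means less than 5 percentage points apart. Where an exon had several such events, the one with the most reads was kept. An exon could thus be constant by one event and not by another with different neighbouring exons: 542 members had another event of the required depth, which differed by 5 points or more between the sets in 146 of them and by 20 points or more in 9. Of 75852 exons in the event table, 57423 met the depth minimum, 2485 of these lay in the inclusion window, and 1159 met the limit on the difference. These 1159 exons were 46.6% of the exons in the window and 2.02% of the exons with the required depth. The values that chose them are described below without a test, because small differences between the sets follow from the choice.

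The study profiled 2 wild type human prostate cancer cell lines, PC3E and GS689.Li (GS689 below), by RNA-seq and by RASL-seq, with 3 libraries per line and assay. RASL-seq measures chosen splice junctions by ligating pairs of oligonucleotide probes on the RNA and counting the ligated products. Both are derivatives of the PC-3 line, PC3E with epithelial features and GS689.Li more invasive and mesenchymal. Per the labels, both grew in DMEM/F12 medium that held G418, FBS (10%) and NEAA (1%), and RNA was taken with Trizol after a night in 10 cm dishes. A stranded total RNA library kit is named, with polyA RNA as the molecule. No treatment or time point separated the groups, so line and group are the same thing. The labels number the libraries 1 to 3 and do not tell separate cultures from repeat libraries of 1 culture, so the p-values rest on a spread that may be technical. The deposited tables hold junction counts and no gene levels, and marker genes of the lines were not analysed here. In the RNA-seq event table the libraries stand as set 1 and set 2, 3 in each, with no line named, and the sets are kept under those numbers here. The RASL-seq columns carry the line names.

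A cassette exon is joined to both neighbouring exons in some transcripts and skipped in others, and its inclusion is the share of transcripts that contain it. Most exons of human genes are included in nearly every transcript. An exon at an intermediate level means that the cells carry both forms of the RNA at once. Proteins that bind near an exon, among them SR proteins, hnRNPs and the epithelial regulators ESRP1 and ESRP2, shift that balance, and the epithelial and mesenchymal states of carcinoma cells are known for switching a set of such exons. When the length of a coding exon is a multiple of 3, skipping it leaves the downstream reading frame as it was.

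Some of the exons are shown here so that their size and ends can be seen, chosen from coding members that are named in the results below. Each is given 5′ to 3′ on the strand of its gene, with the last 3 bases, the exonic part of the 5′ splice site, in capitals. Sequences are from GENCODE release 29 transcripts whose exon and both flanking introns had the lengths seen in the files, and coordinates are those of the files (hg19, counted from 1). The exons lie at chr20:57473996-57474040 (GNAS), chr12:53861589-53861627 (PCBP2), chr4:83277690-83277836 (HNRNPD), chr5:177637133-177637273 (HNRNPAB), chr14:56130673-56130759 (KTN1) and chr11:70267576-70267686 (CTTN). The others lie at chr1:156941489-156941608 (ARHGEF11), chr2:238449445-238449600 (MLPH), chr10:88729957-88730019 (ADIRF), chr15:52641015-52641023 (MYO5A), chr20:44469087-44469097 (SNX21) and chr19:49859216-49859227 (TEAD2).
GNAS: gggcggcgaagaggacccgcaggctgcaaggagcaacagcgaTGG
PCBP2: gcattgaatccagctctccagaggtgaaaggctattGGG
HNRNPD: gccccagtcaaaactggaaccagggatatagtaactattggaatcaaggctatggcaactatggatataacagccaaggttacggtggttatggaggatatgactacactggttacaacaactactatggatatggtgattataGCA
HNRNPAB: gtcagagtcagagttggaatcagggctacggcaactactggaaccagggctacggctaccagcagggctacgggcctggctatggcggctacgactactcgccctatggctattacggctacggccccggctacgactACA
KTN1: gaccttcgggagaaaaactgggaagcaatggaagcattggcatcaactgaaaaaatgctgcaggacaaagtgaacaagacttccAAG
CTTN: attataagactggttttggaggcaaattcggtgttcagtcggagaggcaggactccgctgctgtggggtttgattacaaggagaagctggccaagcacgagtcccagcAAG
ARHGEF11: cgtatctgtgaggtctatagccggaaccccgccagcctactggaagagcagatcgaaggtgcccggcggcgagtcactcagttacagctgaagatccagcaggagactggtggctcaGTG
MLPH: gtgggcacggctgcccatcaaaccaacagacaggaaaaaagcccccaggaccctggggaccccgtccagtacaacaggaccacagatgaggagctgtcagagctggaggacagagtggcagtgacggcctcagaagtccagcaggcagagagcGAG
ADIRF: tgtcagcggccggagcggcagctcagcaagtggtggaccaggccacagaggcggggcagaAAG
MYO5A: gatgacAAG
SNX21: acaaacctCAG
TEAD2: gctctgaacGTG
Except for the 11 nt of SNX21, the lengths of these exons are multiples of 3. The exons of HNRNPD and HNRNPAB, genes of 2 related RNA-binding proteins, were identical at 93 of 132 aligned bases (70.5%), with 24 further bases in gaps. Of the members matched to 1 gene, 57.7% ended in AG, against 55.3% of such exons with the required depth.

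The totals of the RNA-seq event table ran from 93842790 to 120853566 reads per library, and those of the RASL-seq table from 615758 to 954120 counts. Library 2 of set 1 stood apart in the RNA-seq. Over the members its inclusion lay a median of 6.88 points from the other libraries of its set, against 3.57 to 5.49 points for the other 5 libraries, and it was the lowest or the highest of the 6 in 624 members. When the members were chosen without it, 1171 exons qualified, and 853 of them were among the 1159. Membership also changed without other libraries. Of the 1159, 887 remained without library 1 of set 1, and 942 to 976 without any other single library. In the RASL-seq, 66 events passed the test described below with all libraries. Leaving out replicate 2 of PC3E gave the most calls, 86, and leaving out replicate 1 or replicate 3 of GS689 the fewest, 46 each.

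The members were spread over the whole inclusion window, with a median of 60.0%. A mean inclusion of 60 to 80% was seen in 580, of 40 to 60% in 263 and of 20 to 40% in 316. The set means differed by a median of 2.36 points and at most 4.99 points. Inclusion was higher in set 2 in 543 members and lower in 616. The exons of the window at 5 points or more, 1112 of them below 20 points and 214 at 20 points or more, surround the members in the plot of set means.

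**Figure D1:**
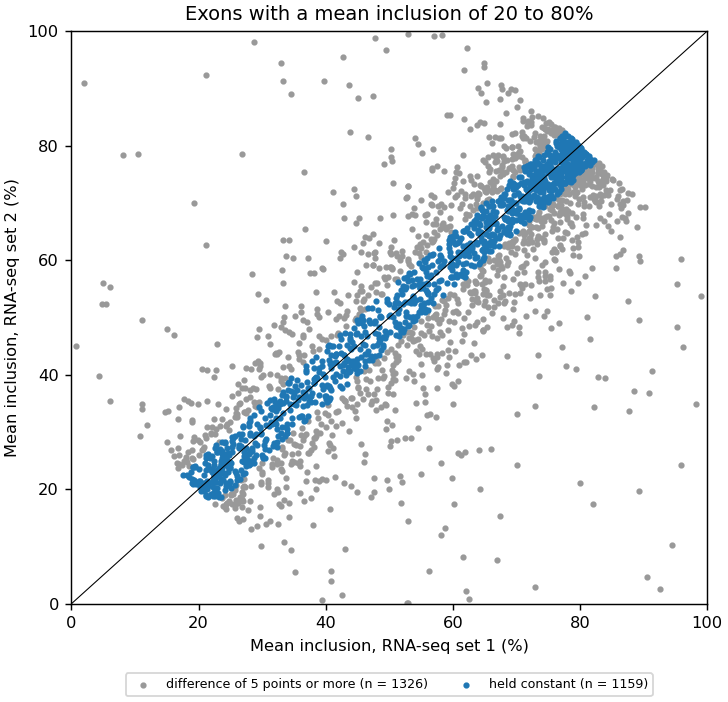
Mean inclusion (%) in RNA-seq set 1 (horizontal axis) and set 2 (vertical axis) for the 2485 exons with a mean of 20 to 80%; each point is an exon and the line marks equal inclusion. The 1159 members (blue) lie along the line because the rule put them there, and the other 1326 exons (grey) lie on both sides of it.

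How closely the members were pinned down varied with the reads. A member had a median of 1465 inclusion and skipping reads over the 6 libraries (366 to 104318), and its lowest library had a median of 167. The counting error of the difference between set means had a median of 2.62 points, and the 95% interval from counting alone stayed within 5 points of 0 for 197 members and within 10 points for 941. These intervals cover counting error only. A mean that is equal between sets did not make the libraries equal. The distance from the lowest to the highest of the 6 libraries had a median of 13.4 points, or 10.7 points without library 2 of set 1. It was under 5 points in 41 members, under 10 in 344, and 20 points or more in 217. All libraries of one set lay above all of the other in 40 members, beside 9.97% of the exons with the required depth. That share was set by the rule as well.

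Limits of this kind cut through a continuum. Just inside the 5-point limit lay the exons of BOD1L1 and MRPS28 (both −4.99 points) and C12orf56 (−4.98 points), and just outside it those of ACTR3B, MGAT5 and APAF1 (5.01 points each). Just below the lower inclusion limit lay exons of PKM (mean over the 6 libraries 19.97%) and TAF1 (19.99%). HRAS and YEATS4 lay just inside the upper limit, and ASPM (80.01%) and ANAPC16 (80.04%) just above it.

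The members with the most reads are described with 1 exon per gene, among exons matched to a single gene. MYL6, an essential light chain of non-muscle and smooth muscle myosin, had the most reads, 104318 over the 6 libraries. Its 45 nt exon had an inclusion of 63.6, 66.8 and 64.4% in set 1 and 60.6, 62.0 and 59.0% in set 2. The sets did not overlap, although their means were 4.40 points apart. The 45 nt exon of GNAS, which separates the long and short forms of the stimulatory G protein alpha subunit, was included at 66.1, 51.1 and 63.3% in set 1 and 56.3, 54.2 and 56.9% in set 2. Library 2 of set 1 was the lowest of the 6, and the other libraries of that set were the highest. MPRIP encodes a protein that ties myosin phosphatase and RhoA to actin. Its 63 nt exon was included at 41.9, 46.0 and 44.1% in set 1 and 36.8, 44.6 and 43.6% in set 2, with overlapping sets. CD59, a cell surface inhibitor of complement, had an untranslated 45 nt exon at 23.8, 19.3 and 22.5% in set 1 and 27.4, 23.5 and 25.7% in set 2.

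RNA-binding protein genes made up several of the best covered members. The 39 nt exon of PCBP2, a poly(C)-binding protein, was included at 70.7, 77.1 and 74.7% in set 1 and at 69.1, 69.4 and 69.6% in set 2. The libraries of set 2 lay within a point of each other and below those of set 1. HNRNPD, also known as AUF1, binds AU-rich elements, and its 147 nt exon was included at 34.6, 39.2 and 38.5% in set 1 and at 34.1, 36.4 and 35.6% in set 2. The related 141 nt exon of HNRNPAB was the major form, at 69.8, 77.7 and 74.6% in set 1 and 75.4, 70.7 and 70.6% in set 2. So these similar exons sat at different levels, and the sets overlapped for both. The 54 nt exon of HNRNPM, a splicing regulator, had set means of 78.4 and 75.3%. A 93 nt exon at chr12:53858544-53858636 that matched both PCBP2 and AC023509.1 had 60904 reads, more than the PCBP2 exon above, and set means of 63.4 and 65.7%.

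The others of these 10 exons were in GUK1, ADIRF and LRRC75A-AS1. GUK1 encodes guanylate kinase, and its 169 nt exon, not a multiple of 3, was included at 71.1, 82.6 and 76.3% in set 1 and 75.7, 76.1 and 73.9% in set 2. The 63 nt exon of ADIRF, a small nuclear protein gene linked to fat cell development, was included at 66.1, 69.1 and 68.7% in set 1 and at 67.1, 72.5 and 69.8% in set 2. LRRC75A-AS1 is annotated as an antisense non-coding gene, and whether reads were assigned by strand is not given in the sources used here. Its 176 nt exon was included at 57.5, 62.7 and 59.3% in set 1 and 61.3, 59.1 and 60.5% in set 2. For each of these 3 exons the libraries of the sets overlapped.

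**Figure D2:**
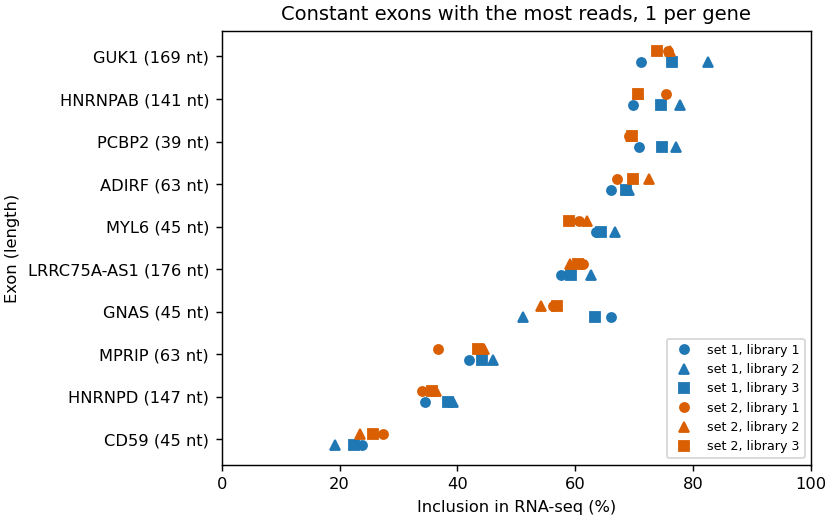
Inclusion (%) in each RNA-seq library for the 10 members with the most reads among those matched to a single gene, 1 exon per gene with the exon length in nt; blue points are set 1, orange points set 2, and the marker shape gives the library. The values run from CD59, near 20%, to GUK1, near 80%, and library 2 of set 1 (blue triangle) is an extreme point in most lines.

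With 500 or more reads in every library, the narrowest spread was 2.88 points, in HNRNPR, which encodes an hnRNP. Its 169 nt exon was included at 43.3, 40.9 and 42.8% in set 1 and 42.1, 40.4 and 42.3% in set 2. A 166 nt version that overlaps it spanned 3.52 points. TNIP1, a binding partner of the NF-κB regulator A20, spanned 3.22 points and PAM, an enzyme that amidates peptides, 3.38 points. ELOC, an elongin subunit, spanned 3.43 points and NDUFB5, a subunit of respiratory complex I, 3.64 points. In these 6 exons all libraries of both sets lay within 4 points of each other.

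The widest spreads among equally well covered members came from libraries within set 1. The 207 nt exon of SPATS2L was included at 59.2, 31.3 and 43.8% in set 1, but at 48.1, 45.3 and 47.7% in set 2. The 51 nt exon of SNHG1, a non-coding host gene of small nucleolar RNAs, was at 67.3, 92.2 and 77.4% in set 1 and at 75.8, 81.0 and 76.3% in set 2. A 277 nt exon of TFDP1, the DNA-binding partner of E2F, stood at 55.0, 78.0 and 60.3% in set 1 against 69.8, 70.3 and 67.1% in set 2. In ZFAND1 the 40 nt exon was at 59.7, 39.3 and 62.2% in set 1 and 52.5, 51.3 and 57.2% in set 2. In all of them library 2 of set 1 was at one end of the range, and another library of set 1 was at the other end.

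Properties that the rule did not use can be compared with the other exons of the same depth and inclusion window, and with all exons of the required depth. These shares are descriptions without a test. Of the members matched to 1 gene, 56.3% lay wholly in coding sequence, against 75.7% of exons with a difference of 20 points or more and 79.9% of all exons. Untranslated exons made up 19.3% of the members (211 exons), 8.57% of those at 20 points or more and 3.90% of all. Exons in a transcript annotated as subject to nonsense-mediated decay (NMD) and in no protein-coding one made up 7.21% (79). Some of these were in other non-coding transcripts as well. Exons only in non-coding transcripts that are not of the NMD class made up 8.67% (95). Exons of the window that differed by 5 to 20 points were close to the members, with 56.1% coding and 16.2% untranslated.

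Of the 617 coding members, 371 had a length divisible by 3, which is 60.1% (exact 95% interval 56.1 to 64.0%). The share was 59.6% at a difference of 5 to 20 points, 78.0% at 20 points or more (124 of 159, 70.7 to 84.2%) and 42.3% over all coding exons. The share moved with the reads. It was 47.0% in coding members whose lowest library had 50 to under 100 reads, 56.4% at 100 to under 200 and 68.6% at 200 or more. At 200 or more reads it was 67.0% for differences of 5 to 20 points, 86.7% for 20 points or more and 42.6% over all exons. It also moved with the event, since 201 members were chosen through an event that is not the best covered one of their exon. Those had 40.5% of coding lengths divisible by 3, against 64.7% in the 958 others.

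**Figure D3:**
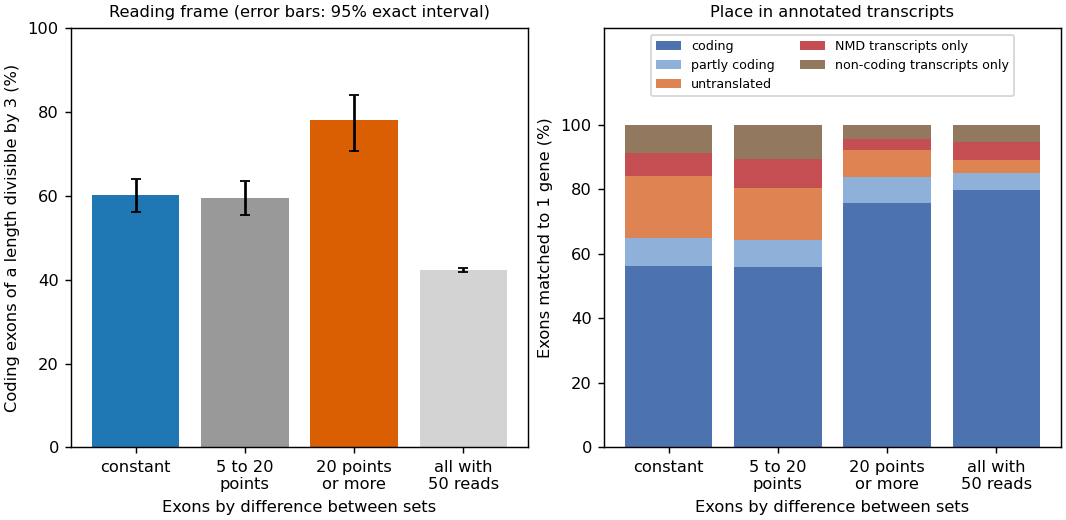
Left, share (%) of coding exons with a length divisible by 3, with exact 95% binomial intervals; right, share (%) of gene-matched exons by place in annotated transcripts; both for constant exons, for differences of 5 to 20 and of 20 or more points, and for all exons with 50 reads in each library. The constant exons stand at 60.1% in the left panel, between all exons at 42.3% and the exons with large differences at 78.0%. In the right panel the NMD class includes exons that were in other non-coding transcripts as well.

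The members were mostly of ordinary size. Their median length was 112 nt, against 87 nt at a difference of 20 points or more and 119 nt over all. Exons of 27 nt or less, often called microexons, made up 2.16% of members (25), 7.94% of exons at 20 points or more and 0.897% of all. The introns beside the members had medians of 2337 nt upstream and 2591 nt downstream, longer than in the other groups, whose medians were 1838.5 to 1984 nt and 1607 to 2046.5 nt. Intron lengths depend on the neighbouring exons of the event, and 201 members were chosen through an event that is not the best covered of their exon. The junction that skips the exon was annotated for 90.8% of the members matched to 1 gene, 91.1% of window exons at 5 to 20 points, 90.5% of those at 20 points or more and 29.3% of all such exons. The median GC content was 49.5% in members, 50.6% at 5 to 20 points, 54.9% at 20 points or more and 49.4% over all exons of the required depth.

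The shortest member was the 9 nt exon of MYO5A, the motor that carries melanosomes and other cargo along actin. It was included at 37.6, 61.6 and 45.8% in set 1 and 43.6, 50.4 and 43.2% in set 2. The 11 nt exon of SNX21, a sorting nexin gene, was at 17.8, 20.7 and 14.2% in set 1 and 18.8, 24.8 and 23.8% in set 2. The 12 nt exon of TEAD2, a DNA-binding partner of YAP1, was at 27.5, 25.3 and 31.6% in set 1 and 23.8, 19.8 and 29.9% in set 2. The sets overlapped in all of these very short exons. Exons of 14 nt in CCNL2 and 18 nt in FAM104A followed, with set means of 39.5 and 38.2% and of 69.3 and 67.2%. At the other end stood exons of 3446 nt in INO80E, 3038 nt in ZNF644 and 2142 nt in ZNF530. The ZNF644 exon ranged from 52.8 to 92.5% over the 6 libraries.

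The 1096 members matched to a single gene came from 905 genes, and 156 genes had 2 or more. COL13A1, which encodes the transmembrane collagen XIII, had the most, 6, and is described for that reason, after its values were seen. Its coding exons of 27, 36, 27, 51, 45 and 42 nt, all multiples of 3, had means over the 6 libraries of 43.1, 40.9, 75.8, 42.8, 25.2 and 72.7%. The set differences of these COL13A1 events were at most 4.87 points. The events of the first 27 nt exon and of the 51 nt exon have the same skipping junction. The skipping junction of the 36 nt exon is an inclusion junction of that 27 nt exon. The levels of these exons are therefore not separate readings. The 45 nt exon was constant only by the event that chose it, since by another event, with 81 reads in its lowest library, its inclusion was 60.6% in set 1 and 87.4% in set 2. Of all members, 126 overlapped another member, as different versions of an exon, and are not independent of it.

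A constant exon and a differing exon could stand in the same gene. Of the 905 genes, 29 (3.20%) also had an exon whose set means differed by 20 points or more, against 2.24% of 9456 named genes with an exon of the required depth. Of those 9456 genes, 1697 had an exon in the inclusion window, as each of the 905 did. Together the 29 genes held 39 members. In CREM and COL13A1 the differing exon was itself a member by another event. The largest contrast was in ARHGEF11, an activator of RhoA. Its 120 nt exon was included at 61.5, 66.2 and 62.7% in set 1 and 56.9, 68.2 and 55.8% in set 2, with overlapping sets. Its 96 nt exon was included at 2.5, 1.6 and 1.7% in set 1 and at 90.9, 92.2 and 89.8% in set 2. MLPH, or melanophilin, links RAB27A to MYO5A. Its 156 nt exon stood at 80.3, 77.3 and 74.1% in set 1 and 78.7, 79.8 and 77.2% in set 2. Its 84 nt exon stood at 7.0, 3.1 and 5.0% against 54.8, 56.4 and 57.1%. In both genes one exon overlapped between the sets while the other was far apart in every library.

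The same was seen in other genes, in either direction. In ENAH, which encodes an actin elongation factor, the 795 nt exon had set means of 78.9 and 77.6%, and the 63 nt exon 62.1 and 2.2%. In TCIRG1, a subunit of the vacuolar proton pump, an untranslated 171 nt exon had means of 19.1 and 23.9%, and a coding 178 nt exon 28.8 and 98.1%. MYO5A had the 9 nt exon described above at 48.3 and 45.7%, and an 81 nt exon at 61.4 and 26.0%. FNBP1, a membrane-bending protein gene, had a 183 nt exon at 76.9 and 78.1% and a 15 nt exon at 61.9 and 26.5%. The event of the 183 nt exon has that 15 nt exon as a neighbour, so these are not separate readings. Inclusion of the 183 nt exon ranged from 65.1 to 94.2% over the libraries. GPR137 had a 372 nt exon at 73.3 and 74.4% and a 37 nt exon at 46.7 and 81.5%. That 37 nt exon lies inside the downstream intron of the event of the 372 nt exon. The skipping junction and the downstream junction of that event thus pass over it, and these are not separate readings either. BAZ2B, a bromodomain gene, had a 294 nt exon at 76.4 and 79.9% and a 27 nt exon at 43.9 and 82.4%. The BAZ2B exon of 294 nt was constant only in its means, since library 2 of set 1 stood at 49.0% and the other libraries of that set at 92.2 and 88.0%.

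**Figure D4:**
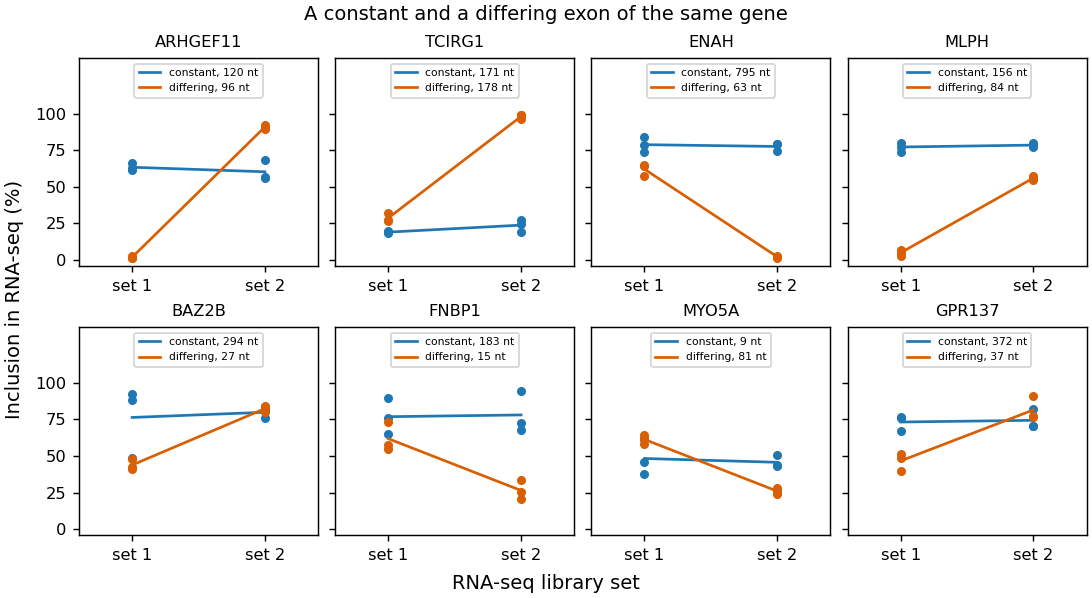
Inclusion (%) in each RNA-seq library of set 1 and set 2 for a constant exon (blue) and a differing exon (orange) of the same gene, in the 8 genes with the largest contrast; points are libraries, lines join the set means and the key gives exon lengths. In ARHGEF11 the constant exon stays at 63.4 and 60.3% while the other goes from 1.9 to 91.0%. In FNBP1 and GPR137 the constant and the differing exon are not separate readings.

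Inclusion could also stay level while the reads of the event differed. The reads of a member's event per 1000000 reads of the table (rpm) were 2-fold or more higher in set 2 in 61 members and lower in 35, together 8.28% of the members, against 11.5% of all exons of the required depth. The genes named next were chosen after their values were seen. CD59 had 31.7, 30.1 and 30.5 rpm in set 1 and 99.2, 157 and 117 in set 2, and PAM 4.95, 11.9 and 6.85 against 33.1, 25.8 and 32.3. The MYO5A event of the 9 nt exon had 1.30, 0.994 and 1.44 rpm against 6.19, 5.43 and 4.38. LRRC75A-AS1 went the other way for the 176 nt exon, with 252, 267 and 237 rpm in set 1 and 52.7, 51.1 and 62.4 in set 2. In these 4 exons the libraries of the sets did not overlap in rpm. Their inclusion overlapped in CD59, MYO5A and LRRC75A-AS1. In PAM the sets did not overlap in inclusion (highest of set 1 73.7%, lowest of set 2 73.8%), and their means lay 1.83 points apart. These are junction reads of an event with given neighbouring exons, not gene levels. In bulk RNA, fewer cells that make a transcript and less of it per cell cannot be told apart.

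The fixed gene lists gave the members of each function. Of the window exons in splicing regulator genes, 20 of 43 were constant (46.5%), near the 46.6% of all window exons. The share was 26 of 48 in chromatin and transcription genes, 20 of 40 in kinase signalling, 15 of 30 in ubiquitin and autophagy genes and 9 of 15 in apoptosis genes. It was 19 of 49 in actin and adhesion genes, 19 of 60 in vesicle traffic genes, 11 of 34 in DNA repair and cell cycle genes and 13 of 31 in mitochondrial and metabolic genes. In genes known for exons regulated by ESRPs or in epithelial to mesenchymal transition, 10 of 58 were constant (17.2%). That list was drawn up for genes with exons that switch, and the rule used the same values, so its low share is a description.

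Examples from these lists show where constant exons sit. BCLAF1, a regulator of transcription and apoptosis, had a 147 nt exon at 54.6, 68.8 and 55.2% in set 1 and 59.8, 62.4 and 59.9% in set 2. BIRC5 encodes survivin, and its 69 nt exon had set means of 30.3 and 27.7%. BID, a death agonist of the BCL2 family, had a 211 nt exon at means of 74.9 and 75.8%. The 27 nt exon of AXL, a receptor tyrosine kinase, had means of 66.4 and 64.5%, and the 42 nt exon of AP2B1, a clathrin adaptor subunit, 29.7 and 30.9%. DNMT1, the maintenance DNA methyltransferase, had a 48 nt exon at 33.8 and 35.4%. DGUOK, a mitochondrial nucleoside kinase, had a 113 nt exon at 22.8 and 21.3%, and its 6 libraries spanned 4.32 points. Others spread more: the 54 nt exon of WIPI2, an autophagy gene, ran from 15.2 to 37.1%, both ends in set 1, and the 231 nt exon of MAP4K4, a kinase, from 9.3 to 28.8%.

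RASL-seq gave a reading that the rule had not used. Its table holds 2023 events, all on the plus strand, where 589 of the members lie, and 156 members were in it. Of these, 132 passed the filter on low counts (a mean of 10 or more counts per library, at least 1 count in each and at least 10 of the rarer form). Each cell is a pair of counts in an order the file leaves unnamed, and the first was taken as inclusion. Its share was correlated with RNA-seq inclusion over 1586 shared events (r = 0.855), and in 51 of 51 events whose upstream junction skips the exon of another event, the first count equalled the other's second. RASL-seq inclusion thus rests on the upstream junction alone. Each event was tested for GS689 against PC3E with a quasi-binomial model whose dispersion was moderated by limma, and called at a Benjamini-Hochberg adjusted p under 0.05 with a difference of 5 points or more. One member, 1 of 132 (0.758%), was called, against 66 of all 1124 events tested (5.87%). The exons of the window at 5 to 20 points in RNA-seq had 13 of 116 called (11.2%), and those at 20 points or more 20 of 28 (71.4%). At an unadjusted p under 0.05 stood 8 of 132 members, against 20.2% of all events. The libraries of the lines did not overlap in 13 members (9.85%), against 23.6% of all events.

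The RASL-seq difference of a member had a median size of 2.27 points (quartiles 0.942 and 4.38), against 6.20 points for exons at 5 to 20 points and 23.2 points for those at 20 points or more. Over all events tested, many of which are included or skipped nearly always, the median was 2.14 points. GS689 was higher in 59 members and lower in 73. The precision was limited. The 95% interval lay within 5 points of 0 for 23 members, within 10 for 71 and within 20 for 108. For the members not within 10, the interval reached a difference of 10 points or more. The median difference was 3.51 points in the members with fewer counts and 1.57 points in those with more.

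**Figure D5:**
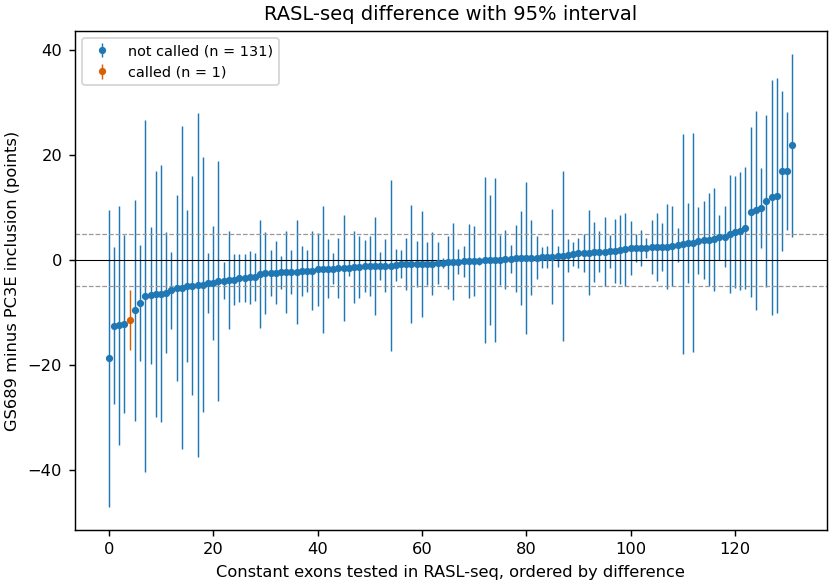
Difference in RASL-seq inclusion, GS689 minus PC3E (percentage points, vertical axis), for the 132 tested members in order of the difference; bars are 95% intervals from the quasi-binomial model and dashed lines mark 5 points. One member (orange) was called, at −11.4 points, and 104 of the 132 lie within 5 points of 0.

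The called member is a 56 nt exon at chr7:38218692-38218747 that matched no exon of the annotation. RASL-seq gave it 47.4, 45.0 and 44.2% in PC3E and 36.8, 30.7 and 34.9% in GS689. The lines did not overlap. The means were 45.5% ± 1.66 and 34.1% ± 3.09 (SD, n = 3 libraries each), a difference of −11.4 points (95% interval −17.1 to −5.61; adjusted p = 0.0185, limma-moderated quasi-binomial model). Its RNA-seq inclusion was 23.9, 22.9 and 25.1% in set 1 and 26.1, 23.6 and 18.6% in set 2, with overlapping sets. The call was lost under 6 of the 12 alternatives. Without replicate 1 of PC3E, replicate 2 of GS689 or replicate 3 of GS689 its adjusted p by limma moderation was 0.0886, 0.0813 and 0.0662, and over all alternatives it ran from 0.0150 to 0.201.

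The deepest RASL-seq events among the members put narrow limits on a difference between the lines. KTN1 encodes kinectin, a membrane protein of the endoplasmic reticulum, and its 87 nt exon had a mean of 12355 counts per library. It was included at 42.3, 38.4 and 40.7% in PC3E and at 39.7, 41.9 and 39.0% in GS689, a difference of −0.27 points (95% interval −2.62 to 2.08). The untranslated 124 nt exon of KTN1 differed by −0.519 points (−1.47 to 0.428). CTTN, or cortactin, binds actin filaments through a row of repeats, and the 111 nt exon, one repeat, was included at 76.8, 72.1 and 74.0% in PC3E and at 73.6, 77.5 and 78.6% in GS689. The difference was 2.31 points (−1.09 to 5.70), and the lines overlapped. In the RNA-seq the same CTTN exon had set means of 71.2 and 73.7%.

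The intervals of the other deeply counted members varied in width. The GNAS exon was at 33.7, 22.6 and 30.8% in PC3E and at 32.5, 29.0 and 30.2% in GS689, and the difference was 1.55 points (95% interval −4.20 to 7.31). Replicate 2 of PC3E was the lowest. The MPRIP exon differed by −0.909 points (−3.95 to 2.13), and the 90 nt exon of SLMAP, a membrane protein gene, by −1.61 points (−7.31 to 4.09). In TMEM14B, a small membrane protein gene, the 102 nt exon was at 92.2, 92.6 and 92.3% in PC3E and at 94.0, 96.6 and 93.6% in GS689. These libraries did not overlap, and the difference of 2.37 points (0.427 to 4.31) did not pass adjustment (adjusted p = 0.145, limma-moderated quasi-binomial model). The 93 nt exon matched to PCBP2 and AC023509.1 differed by 1.43 points (−2.20 to 5.07).

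The larger differences of ATG10, TBC1D25 and WNK1 rested on few counts, with means of 26.3, 37.3 and 38.7 per library. DNM1L, RBBP6 and ADARB1 had more, with means of 180, 733 and 1160. The genes in this paragraph were chosen after their values were seen, as the other members with an unadjusted p under 0.05. The 135 nt exon of ATG10, an autophagy enzyme gene, was at 0, 7.69 and 5.88% in PC3E and 20.5, 21.4 and 22.6% in GS689. DNM1L, the dynamin-related protein that divides mitochondria, had a 78 nt exon at 32.5, 29.7 and 27.2% against 37.8, 35.7 and 45.8%. The 84 nt exon of WNK1, a kinase that regulates ion transport, was at 42.3, 34.0 and 46.7% against 63.6, 58.1 and 52.2%. In these 3 exons the lines did not overlap, but the adjusted p was 0.114, 0.136 and 0.167 in the limma-moderated model. TBC1D25 and RBBP6 overlapped between the lines, with differences of 21.9 and 4.34 points. Without replicate 2 of PC3E, TBC1D25 reached an adjusted p of 0.0239 in that model, against 0.145 with all libraries. The 118 nt exon of ADARB1, an RNA-editing enzyme gene, differed by −3.91 points (−7.50 to −0.318) with an adjusted p of 0.153 in the limma-moderated model. Without replicate 2 of PC3E it was −5.60 points with an adjusted p of 0.0320 in that model, and over all alternatives the adjusted p ran from 0.0320 to 0.588.

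None of the members in the fixed gene lists was called in RASL-seq by the limma-moderated model. The number tested was small, at most 6 in the chromatin and transcription list. In the list of ESRP and transition exons, 24 of the 47 tested events were called, and its 2 tested members, in CTTN and MPRIP, were not.

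The assays often gave a member different levels. The mean RASL-seq inclusion over the 6 libraries lay a median of 18.2 points from the mean RNA-seq inclusion. It was within 10 points in 26 members and 30 points or more away in 34. RASL-seq put 77 of the 132 members between 20 and 80%, 29 below and 26 above. Across the 132 exons, which share libraries and are not replicates, Pearson's r of the levels was 0.523 and Spearman's rho 0.530. The members with the largest gaps were picked out after their values were seen. The 45 nt exon of EXOC1, an exocyst subunit, was at 3.90% in RASL-seq and 69.8% in RNA-seq, and the 27 nt exon of SLCO4A1, a transporter gene, at 11.5 and 72.7%. The 75 nt exon of TGFBR2, a receptor for TGF-β, was at 93.8 and 32.7%, and the 50 nt exon of SZRD1 at 92.7 and 29.6%. In these exons the libraries of an assay lay far closer to each other than to the other assay. RASL-seq counts the upstream junction of an exon and RNA-seq both, and the part of this in the gaps was not tested. Without length correction of the RNA-seq, the median gap was 24.7 points in place of 18.2.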

How the data were processed

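RNA-seq and RASL-seq of 3 PC3E and 3 GS689 libraries each were used as deposited. The authors' tables hold whole-number counts of inclusion and skipping reads per cassette exon event (a unit of another kind than a single value: pairs of counts, with 3 libraries per cell of the RNA-seq table) and 2 effective lengths, per the file headers. The submitters' processing notes name STAR 2.5.2a, kallisto 0.43.0 and hg19, with no role given. The RNA-seq columns name 2 numbered sets and no line, so no test was made between them. No column of per-sample values was left unused (0).

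Inclusion was (I/length of I)/((I/length of I) + (S/length of S)) per library, with a skipping length of 101 and inclusion lengths of 102 to 202, and set means were means of 3 libraries. RASL-seq inclusion was the share of the first count of each deposited pair, taken as inclusion. Exons were named by matching chromosome, strand, exon length and both intron lengths to GENCODE 29. This gave 1 gene for 109246 of 114816 RNA-seq events and 1934 of 2023 RASL-seq events. Of the 1159 members, 1096 matched 1 gene, 31 several and 32 none.

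RASL-seq was tested over all 1124 events that passed the filter, with a quasi-binomial model, its dispersion moderated by squeezeVar of limma 3.58.1 (R 4.3.3, statmod 1.5.0), an F test and Benjamini-Hochberg adjustment. The model was tested on simulated data. Tables and figures used Python 3.11.15 with numpy 2.4.6, scipy 1.17.1, pandas 2.3.3, matplotlib 3.10.9 and biopython 1.88. Named exons were the 10 with the most reads among members matched to 1 gene, 1 per gene, those with the narrowest (6) and widest (4) spread over libraries among members with 500 or more reads in each library, those called in RASL-seq and the 8 with most RASL-seq counts among those not called, the 8 with the largest contrast in their gene, those at the limits, the 5 shortest and 3 longest, and up to 3 per gene list by reads. Not all of the last are printed, and the exons just inside the lower inclusion limit are not reported here. Members, lists and tests were chosen with earlier results of these data known. Alternatives changed the depth, the limits, the length correction, the RASL-seq model and filter, the replicate block and each library in turn. Reads carry no molecular identifiers in these tables, so intervals cover counting error and, in RASL-seq, the spread between libraries.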

Additional observations from a re-analysis of the deposited data

How the results depend on the processing

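The number of constant exons followed the limits: 505 with 200 or more reads in each library, 511 at a difference below 0.02, 1829 below 0.10, 586 in a window of 0.3 to 0.7 and 2787 in one of 0.1 to 0.9, against 1159. It was 958 where the best covered event of each exon was chosen first, an alternative added after seeing the data. Leaving out each RNA-seq library gave 1076 to 1171. The share of coding lengths divisible by 3 was 64.3% at 100 or more reads, 68.6% at 200, 65.5% in the narrower window, 54.2% in the wider one, 67.5% without length correction and 64.7% with the best covered event first, against 60.1%; over all members the share was 55.2% at 200 reads, against 48.6%. Leaving out single libraries gave 58.4 to 61.9% and 46.7 to 50.5%. In RASL-seq, 66 events were called; limma on the log2 ratio of counts called 28 with a pseudocount of 0.5, and the model without the low count filter called 5. Members called were 0 in each of these and 0 with a pseudocount of 5, where 7, 4 and 7 members had an unadjusted p under 0.05 with the pseudocount of 0.5, without the filter and with the pseudocount of 5. Leaving out each library in turn gave 46 to 86 events and 0 to 4 members; the 4, without replicate 2 of PC3E, were the chromosome 7 exon, ADARB1, TBC1D25 and an exon matched to no single gene at chr11:66410921-66411611 (−8.31 points, adjusted p = 0.0421 in the limma-moderated model). Members chosen without library 2 of set 1 had 2 calls among 130 tested. The median difference of members ran from 1.70 to 2.78 points over all alternatives. The gap between the assays' levels was 24.7 points without length correction, against 18.2 points, and 17.7 to 18.9 points without single libraries. With the replicate number as a block, 88 events and 1 member were called. Same-numbered libraries of the lines had deviations correlated at 0.178, 0.0714 and 0.0490 over 874 events. Differently numbered libraries ran from −0.203 (replicate 1 of PC3E with replicate 2 of GS689) to 0.128 (replicate 3 of PC3E with replicate 2 of GS689). The main model took no pairs, and these values do not settle whether the numbers mark pairs. Of the 2 exons without a gene, the chromosome 7 exon was lower in GS689 under every alternative run, and the chromosome 11 exon ran from −8.31 to 0.468 points.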
